A study of Homo sapiens with 64 samples.

Results

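Ligands of the EGF receptor family were followed through 6 genes in BEAS-2B cells, an immortalised line of human airway epithelium: AREG, EREG, HBEGF, TGFA, BTC and NRG1. They were chosen by symbol, as all probe sets (groups of short array probes read as 1 value) whose platform annotation names a member. This gave 17 of 54675 probe sets for 5 of the 6 genes: HBEGF had 4, TGFA 3, EREG 2, BTC 2 and NRG1 6, while no probe set was named for AREG, which was not analysed here. The arrays came from 4 treatments at 4 times with 4 arrays in each of 16 groups. The treatments were 10 nM indacaterol, a long-acting agonist of the β2-adrenoceptor, 10 nM indacaterol with 10 nM GSK 256066 (Ind+GSK), 10 nM GSK 256066 alone (GSK), an inhibitor of the cAMP-degrading enzyme PDE4, and vehicle, each for 1, 2, 6 or 18 h. By the labels all groups shared the same line and the same culture conditions. In these, confluent cells had been fed EGF with their medium before a last day in medium listed without that supplement. Nothing in the labels says whether replicates were separate cultures, so p-values measure only the spread between these arrays, which may be technical.

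EGF-family ligands are made as membrane-anchored precursors that metalloproteases of the ADAM family cut free. AREG, EREG, HBEGF, TGFA and BTC bind EGFR (HBEGF, EREG and BTC also ERBB4), while NRG1 binds ERBB3 and ERBB4, and receptor dimers then signal through RAS and ERK to immediate-early genes and to feedback inhibitors. In airway epithelium this loop is known for wound repair, and β2-agonists act through cAMP, whose kinase PKA phosphorylates the transcription factor CREB.

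Because both drugs act on cAMP, the letters of the cAMP response element were looked for around the start sites of the ligand genes. RefSeq promoter windows of GRCh38.p14, from 250 bases before to 50 after the start, were given for 5 of the 6 genes, with 2 for TGFA and none for NRG1, 6 windows in all. The full element TGACGTCA, searched on both strands, lay in 1 of them, that of AREG, 65 bases before the start, and in 1.85% of 35116 windows of all genes. The shorter motif TGACG, which the full element contains, lay on the gene's own strand in 3 of the 6 windows, those of AREG (inside the full element) and EREG and 1 of TGFA, and in 14.6% of all windows, or 24.6% on either strand. The AP-1 site TGACTCA was in none of the 6 windows and in 4.95% of all. The HBEGF and BTC windows held none of the 3 motifs, which says only that these letters are not there. The windows of the 2 ligands with the highest mean changes are shown 5′ to 3′ on the gene's strand, with the shorter motif in capitals. HBEGF lies at chr5:140346554-140346853 on the minus strand and EREG at chr4:74364895-74365194 on the plus strand.
HBEGF: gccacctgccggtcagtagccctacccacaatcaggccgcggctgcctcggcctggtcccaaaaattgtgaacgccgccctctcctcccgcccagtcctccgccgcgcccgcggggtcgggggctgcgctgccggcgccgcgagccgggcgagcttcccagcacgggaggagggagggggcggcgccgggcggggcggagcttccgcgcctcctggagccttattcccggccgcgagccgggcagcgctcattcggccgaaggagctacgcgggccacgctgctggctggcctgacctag
EREG: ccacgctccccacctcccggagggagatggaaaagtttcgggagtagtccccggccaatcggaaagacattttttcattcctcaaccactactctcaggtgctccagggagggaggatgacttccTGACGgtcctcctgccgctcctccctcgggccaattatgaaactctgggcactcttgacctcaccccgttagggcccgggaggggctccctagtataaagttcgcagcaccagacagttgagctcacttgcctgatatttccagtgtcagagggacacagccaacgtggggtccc

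Signals are the authors' deposited array intensities, and their medians over the probe sets of an array ran from 101.2 to 127.4. The 16 arrays numbered replicate 3 stood apart. Of 10 markers of basal and squamous keratinocytes 6 were measured, and 5 of these (KRT5, KRT14, KRT16, S100A8 and S100A9) were higher on all 16 replicate 3 arrays than on any of the other 48. The summed signal of the 6 was between 405200 and 1532000 there, against 293.5 to 597.8 elsewhere. Within replicate 3 the sum also differed between treatments, each value being a single array. At 6 h it was 931100 with indacaterol, 1257000 with Ind+GSK, 567900 with GSK and 506800 with vehicle. At 18 h it was 943900, 1532000, 560100 and 550900 in the same order, while at 1 and 2 h it lay between 405200 and 545000. This range came mostly from S100A9, which ran from 96850 to 1082000 over the 16 replicate 3 arrays. The keratins moved less, KRT14 from 265800 to 419700 and KRT5 from 30130 to 36670. Of 6 markers of simple epithelium KRT19 and CDH1 were higher on all replicate 3 arrays, and the sum of the 6 was 20220 to 29290 in replicate 3 and 8581 to 19710 elsewhere. KRT7 had a median of 6480 in replicate 3 and 562.6 elsewhere, and KRT19 one of 3420 in replicate 3 and 0.02766 elsewhere. Of 6 fibroblast markers 0 were higher on all replicate 3 arrays, and their sum, mostly from COL1A1, was 7091 to 10290 in replicate 3 and 8601 to 13480 elsewhere. Among them PDGFRB had a median of 958.6 in replicate 3 and 2035 elsewhere, and DCN one of 189.4 in replicate 3 and 120.2 elsewhere. Summed signals of 4 leukocyte, 3 endothelial and 4 ciliated or secretory markers overlapped between replicate 3 and the rest. The labels name the same line for all arrays, and whether replicate 3 held the same cells as the rest was not tested. The fits of genes were repeated with replicate 3 left out. Fits of single probe sets and the pairing rule below used all arrays.

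Each gene was represented by its brightest probe set and tested with limma, on log2(signal + 16), in 1 model of all 64 arrays with 19775 genes. A call is an adjusted p under 0.05 (Benjamini-Hochberg, over all genes). Signals of different probe sets are not compared with each other, since each has its own brightness.

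The ligand with the clearest pattern was HBEGF, heparin-binding EGF-like growth factor. At 2 h its signal (probe set 203821_at) was 1317, 1041, 667 and 848 in replicates 1 to 4 with indacaterol. It was 1163, 1024, 598 and 740 with Ind+GSK, 936, 592, 512 and 654 with GSK, and 792, 697, 401 and 561 with vehicle. Replicate 1 was the highest and replicate 3 the lowest array in all 4 treatments, so the groups overlapped although each array with indacaterol was above the vehicle array of the same number. The ratios of same-numbered arrays were 1.66, 1.49, 1.66 and 1.51 for indacaterol over vehicle and 1.47, 1.47, 1.49 and 1.32 for Ind+GSK over vehicle.

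**Figure D1:**
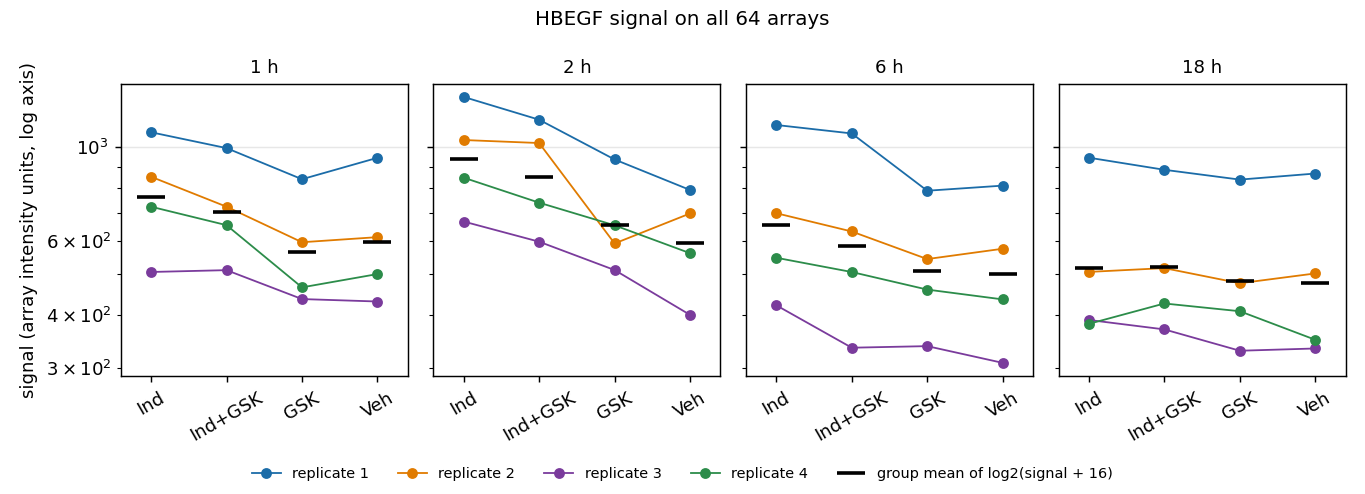
HBEGF signal (array intensity, log axis) on each of the 64 arrays, in 1 panel per time, with treatments from left to right as indacaterol (Ind), Ind+GSK, GSK and vehicle (Veh). Points joined by a line share a replicate number and black bars are the mean of log2(signal + 16) turned back into signal; at 2 h every indacaterol point lies above the vehicle point of its number, while the 4 numbers differ from each other by more than the treatments do.

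At 1 h HBEGF read 1086, 852, 507 and 723 with indacaterol and 996, 724, 512 and 654 with Ind+GSK. The GSK arrays read 840, 596, 437 and 466 and the vehicle arrays 945, 613, 431 and 501. All 4 arrays with indacaterol, and all 4 with Ind+GSK, were above the vehicle array of the same number, by ratios of 1.15 to 1.44 and of 1.05 to 1.31. At 6 h the signal was 1130, 698, 422 and 548 with indacaterol, 1079, 632, 335 and 506 with Ind+GSK, 789, 544, 338 and 460 with GSK, and 812, 575, 308 and 436 with vehicle. At 18 h the 4 treatments lay close together, with means of 556 ± 266 for indacaterol, 550 ± 232 for Ind+GSK, 513 ± 225 for GSK and 513 ± 248 for vehicle (SD, n = 4 each).

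Across arrays without regard to replicate number, the HBEGF difference from vehicle with indacaterol was 0.35 ± 0.35 log2 units at 1 h, 0.65 ± 0.35 at 2 h, 0.37 ± 0.35 at 6 h and 0.12 ± 0.35 at 18 h (± SE). The 2 h value is a 1.56-fold difference with a 95% interval of -0.06 to 1.35 log2 units (unadjusted p = 0.0712, limma adjusted p = 0.697). With indacaterol 0 of the 5 ligand genes were called at any time, against 0.212% of all genes at 1 h, 1.22% at 2 h, 0.268% at 6 h and 0.00506% at 18 h. None of the 5 had an unadjusted p under 0.05 in these comparisons. The moderated F-test found no HBEGF difference between times in the indacaterol effect (limma adjusted p = 1 with 0.268% of all genes called). That of the Ind+GSK effect was not called for any ligand gene either, against 0.344% of all genes.

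With Ind+GSK the HBEGF difference from vehicle was 0.23 at 1 h, 0.51 at 2 h, 0.21 at 6 h and 0.12 at 18 h, each with the same SE. Again 0 of 5 ligand genes were called by limma, and 0 had an unadjusted p under 0.05, against 0.283% of all genes called at 1 h, 1.06% at 2 h, 0.759% at 6 h and 0.0354% at 18 h. Exact two-sided permutation tests of 4 against 4 arrays, where 0.0286 is the smallest p possible, gave no value under 0.0857 in the 80 tests of 5 genes and 16 comparisons, and in none of the 80 were the groups free of overlap. These tests ignored the replicate number, so they cannot show a difference smaller than the spread between numbers. EREG was higher in replicates 1 and 3 than in replicates 2 and 4 on all arrays, so its groups had to overlap.

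For 14 of the 19 comparisons of 2 groups tested, same-numbered arrays deviated together from their group means (all 4 correlations over genes above 0.1), and the replicate number was treated as a pairing. The group means included replicate 3, which stood apart, so deviations of the other arrays share a part whatever their number. The rule alone therefore cannot show that those numbers pair, and arrays are called paired below only because they met it. Ind+GSK at 2 h and indacaterol at 6 h were among the 14 comparisons, and with the number as a block HBEGF was called in both. HBEGF rose by 0.51 ± 0.10 log2 units with Ind+GSK at 2 h (limma adjusted p = 0.000493 with the block), where 3.5% of all genes were called. It rose by 0.37 ± 0.10 with indacaterol at 6 h (limma adjusted p = 0.0287 with the block), where 2.32% of all genes were called. Without replicate 3 the blocked Ind+GSK call at 2 h held (limma adjusted p = 0.0149) and the indacaterol call at 6 h was lost (limma adjusted p = 0.203). The indacaterol difference at 6 h was then still 0.35 ± 0.12 log2 units. The 6 h call was likewise lost with any other single replicate number left out. On the 6 h arrays of replicate 3 the keratinocyte sum was 931100 with indacaterol and 506800 with vehicle. The range of that sum in replicate 3 came mostly from S100A9. Its part in the 6 h call was not tested beyond leaving replicate 3 out. In the blocked fit no ligand gene was called with indacaterol at 1 h (limma adjusted p = 0.0783 for HBEGF, 1.04% of all genes called) or with Ind+GSK at 6 h (limma adjusted p = 0.282 for HBEGF, 5.29% of all genes called). The numbers did not meet the rule for indacaterol at 2 h, where the lowest of the 4 correlations was 0.0862.

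**Figure D2:**
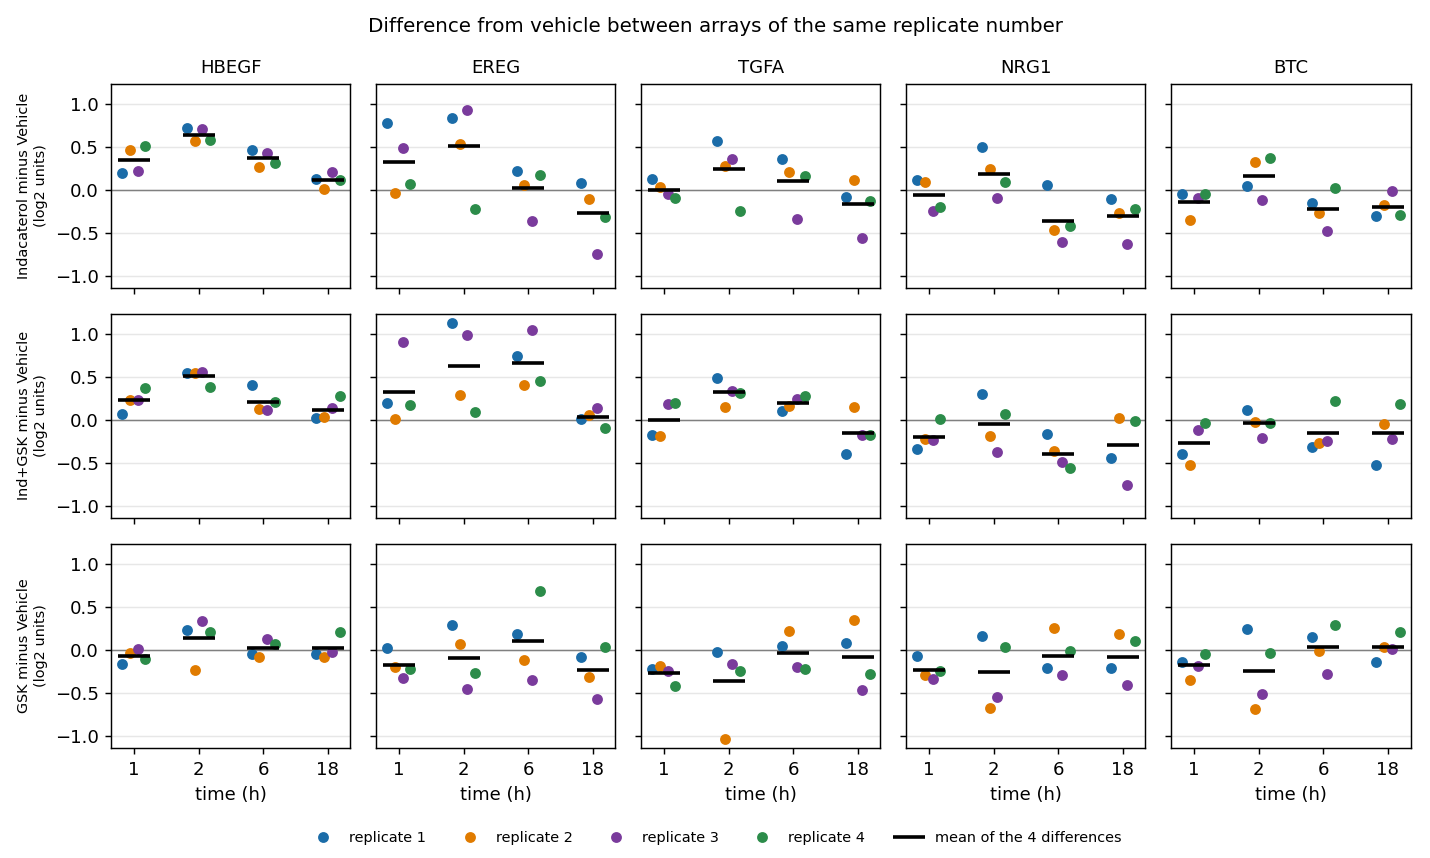
Difference in log2(signal + 16) between a treated array and the vehicle array of the same replicate number and time, for 5 ligand genes (columns) and 3 treatments (rows: indacaterol, Ind+GSK, GSK). Points are replicate numbers, black bars their mean and the horizontal line no difference. With indacaterol at 2 h the 4 HBEGF points lie between 0.57 and 0.72, while the EREG points of that treatment and time lie between -0.23 and 0.93.

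HBEGF has 3 further probe sets. The next brightest, 38037_at, read 762, 608, 380 and 443 with indacaterol and 648, 530, 317 and 440 with Ind+GSK at 2 h. Its vehicle arrays read 464, 384, 252 and 307, so each treated array was again above the vehicle array of its number. The differences from vehicle were 0.60 with indacaterol and 0.43 with Ind+GSK, neither called across arrays (limma adjusted p = 0.674 and 1, over all probe sets, of which 0.938% and 0.751% were called). With the block the Ind+GSK difference was called (limma adjusted p = 0.0235, 2.37% of all probe sets called), in a fit that included replicate 3. The other two did not follow: with indacaterol at 2 h 244857_at differed by -0.06 and 222076_at, whose mean signal was 13.8, by 0.17 log2 units.

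GSK alone left HBEGF near vehicle, with differences of -0.07 at 1 h, 0.14 at 2 h, 0.02 at 6 h and 0.02 at 18 h and 95% intervals that all span 0, the widest bound being 0.84 log2 units. With GSK 0 of the 5 ligand genes were called by limma, and 0 had an unadjusted p under 0.05. Of all genes 0.00506% were called at 1 h and 0% at each later time. Unadjusted limma p-values below 0.05 came from 1401, 898, 345 and 700 of 19775 genes at 1, 2, 6 and 18 h. Adding GSK 256066 to indacaterol gave HBEGF differences, Ind+GSK minus indacaterol, of -0.12, -0.14, -0.16 and 0.00 at 1, 2, 6 and 18 h. None of the 5 ligand genes was called in these comparisons (limma adjusted p = 1 and no unadjusted p under 0.05, without the block), and 0% of all genes were. At 2 h the 95% interval for HBEGF ran from -0.84 to 0.57 log2 units. The numbers paired these arrays, and with the block the interval was -0.34 to 0.065 (limma adjusted p = 1). The departure from additivity of the drugs was not called by limma for any of the 5 genes at any time (0% of all genes).

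With no drug HBEGF was lower late in culture. Vehicle arrays read 867, 503, 334 and 350 at 18 h, against 945, 613, 431 and 501 at 1 h, and each 18 h array was below the 1 h array of its number. The difference of -0.31 ± 0.35 log2 units was not called across arrays (limma adjusted p = 0.961; 0 of 5 ligand genes against 1.59% of all genes). At 2 and 6 h against 1 h 0 of 5 were called by limma, against 0.192% and 1.21%, as in the F-test over the 4 times, against 6.63%, and no ligand gene had an unadjusted p under 0.05. The numbers paired the 18 h and 1 h arrays. With the block HBEGF fell by 0.31 ± 0.10 (limma adjusted p = 0.0424, 7.92% of all genes called). This call was lost without replicate 3 (limma adjusted p = 0.17 with the block), where the difference was -0.30 ± 0.12 log2 units. The 16 HBEGF group means ranged between 968 in indacaterol at 2 h and 513 in vehicle at 18 h, and neighbours in that order did not differ beyond an SD of 170 to 318 within each group.

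EREG, epiregulin, was set mainly by the replicate number. Its probe set 205767_at read between 82.3 and 718 on the 32 arrays of replicates 1 and 3 and between 4.91 and 28.1 on the 32 arrays of replicates 2 and 4, without overlap. At 2 h it was 183, 28.1, 598 and 13.2 with indacaterol, 227, 21.4, 626 and 20.3 with Ind+GSK, 120, 16.04, 219 and 12.4 with GSK, and 95.3, 14.5, 306 and 18.1 with vehicle. All 4 Ind+GSK arrays were above the vehicle array of the same number, and so were 3 of 4 indacaterol arrays. The Ind+GSK ratios were 2.38 in replicate 1 and 2.04 in replicate 3. In replicates 2 and 4 all EREG signals were low (4.91 to 28.1), near the added constant of 16, so no ratio is given for them.

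At 1 h EREG was 182, 23.6, 535 and 18.3 with indacaterol, 116, 24.9, 718 and 21.1 with Ind+GSK, 101, 19.4, 296 and 12.2 with GSK, and 98.8, 24.7, 376 and 16.8 with vehicle. At 6 h it was 98.2, 17.5, 156 and 7.63 with indacaterol, 149, 26.8, 440 and 12.7 with Ind+GSK, 96.4, 13.7, 157 and 17.7 with GSK, and 82.3, 16.3, 204 and 4.91 with vehicle. All 4 Ind+GSK arrays were above both the vehicle and the indacaterol array of their number at 6 h, again with replicates 2 and 4 at low signal. In replicate 3 the keratinocyte sum at 6 h was also higher with Ind+GSK (1257000) than with indacaterol (931100) or vehicle (506800). The range of that sum in replicate 3 came mostly from S100A9, and its part in the EREG values was not tested. At 18 h replicate 3 read 127 with indacaterol, 250 with Ind+GSK, 146 with GSK and 224 with vehicle, and replicate 1 between 109 and 124 in all 4 treatments.

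**Figure D3:**
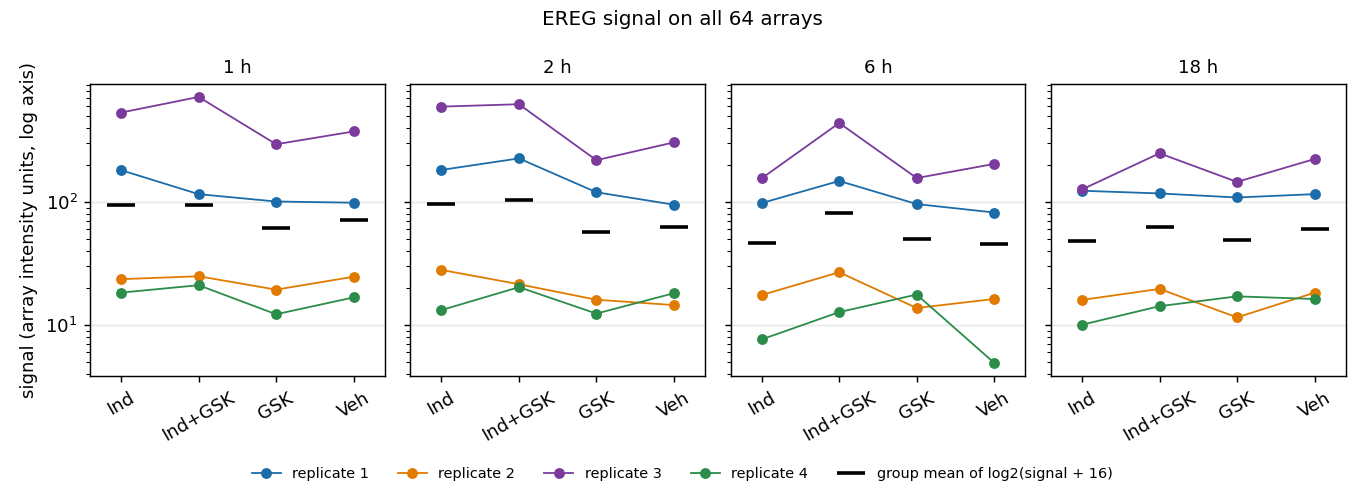
EREG signal (array intensity, log axis) on each of the 64 arrays, in 1 panel per time, with treatments from left to right as indacaterol (Ind), Ind+GSK, GSK and vehicle (Veh). Lines join arrays of 1 replicate number and black bars are the mean of log2(signal + 16) turned back into signal; replicates 1 and 3 lie above 82 and replicates 2 and 4 below 29 in every treatment and at every time.

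The EREG difference from vehicle with Ind+GSK was 0.63 ± 1.13 log2 units at 2 h and 0.67 ± 1.13 at 6 h, and with indacaterol it was 0.52 ± 1.13 at 2 h (± SE). None was called across arrays (limma adjusted p = 1, 0.999 and 0.996). With the replicate block the SE was 0.24, and the Ind+GSK differences were not called at 2 h (limma adjusted p = 0.195) or at 6 h (limma adjusted p = 0.107). The 6 h value depended on the constant added before taking logs: with 1 in place of 16 the blocked difference was 0.96 log2 units (limma adjusted p = 0.0284). Without replicate 3, and with 16 added, the Ind+GSK differences were 0.50 log2 units at 2 h and 0.54 at 6 h. Neither was called with the block (limma adjusted p = 0.167 and 0.0989). The second EREG probe set, 1569583_at, had a mean signal of 56.2, and 6.8% of its sum of squares went with the replicate number.

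The replicate number took 91.1% of the EREG sum of squares over the 64 arrays, the treatment-by-time group 4.82% and the rest 4.11%. For NRG1 the shares were 84.8%, 5.87% and 9.32%, and for HBEGF 66.1%, 28.6% and 5.31%. BTC had 45.1% with the replicate number and TGFA 18.3%, against a median of 13.3% over all genes. The direction differed between ligands: replicate 3 held the highest EREG array and the lowest NRG1 array of all 16 groups and the lowest HBEGF array of all but 1 (indacaterol at 18 h). The keratinocyte markers moved with replicate 3 but not with replicate 1, whose summed marker signal was 293.5 to 597.8. The part of other cells in these levels was not tested, and in bulk RNA fewer cells of a type cannot be told apart from less RNA per cell.

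**Figure D4:**
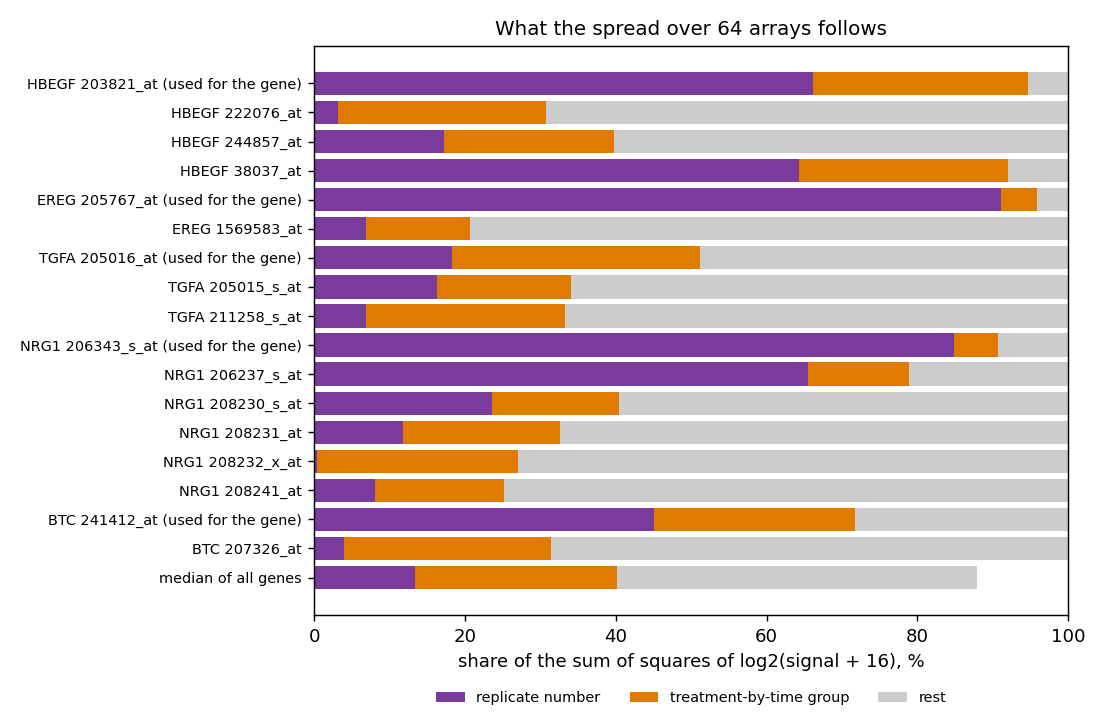
Share of the sum of squares of log2(signal + 16) over 64 arrays taken by the replicate number, the treatment-by-time group and the rest, for each of the 17 ligand probe sets and, as separate medians that need not add to 100, over all genes. The brightest probe sets of EREG, NRG1 and HBEGF have between 66.1% and 91.1% with the replicate number.

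TGFA, transforming growth factor alpha, was called in no comparison. At 2 h its probe set 205016_at read 280, 325, 418 and 212 with indacaterol, 266, 297, 410 and 318 with Ind+GSK, 180, 122, 286 and 212 with GSK, and 184, 266, 321 and 253 with vehicle. The Ind+GSK difference from vehicle, 0.32 ± 0.19 log2 units with all 4 same-numbered arrays higher, was not called (limma adjusted p = 0.922, and 0.449 with the block). The GSK difference of -0.36 ± 0.19 had the lowest unadjusted p of the 5 genes in the drug comparisons without the block, 0.0669 (limma adjusted p = 1), and its replicate 2 array, at 122, was the lowest TGFA value of all 64. At the other times group means were between 254 and 331. The remaining TGFA probe sets, 205015_s_at and 211258_s_at, had mean signals of 27.6 and 98.8.

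NRG1, neuregulin 1, read 212, 113, 41.8 and 124 with indacaterol at 6 h, 179, 123, 46.8 and 111 with Ind+GSK, 173, 197, 56.0 and 170 with GSK, and 203, 162, 72.0 and 171 with vehicle (probe set 206343_s_at). All 4 Ind+GSK arrays and 3 of 4 indacaterol arrays were below the vehicle array of their number. The differences of -0.39 ± 0.50 and -0.36 ± 0.50 log2 units were not called (limma adjusted p = 0.999 and 1, and 0.182 and 0.37 with the block). On replicate 3 arrays NRG1 stayed between 35.7 and 74.5, below all 48 other arrays, which started at 81.0. Of its 5 other probe sets, 206237_s_at had 65.5% of its spread with the replicate number and the remaining 4 at most 23.5%.

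BTC, betacellulin, was dim, with 10.4 to 51.1 on its brighter probe set 241412_at and a mean signal of 22.4 on 207326_at, and none of its differences was called. With indacaterol at 2 h it read 32.5, 37.3, 29.3 and 28.4, against 31.0, 26.5, 33.1 and 18.2 with vehicle, an overlap of the groups. At signals this low the added constant of 16 shrinks fold changes.

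The 4 receptors were measured on all arrays, with median signals of 2896 for EGFR, 1714 for ERBB2, 607 for ERBB3 and 94.4 for ERBB4, and 0 of 4 were called in any comparison with vehicle across arrays, against at most 1.22% of all genes. With the block, where 3.5% of all genes were called with Ind+GSK at 2 h and 5.29% at 6 h, EGFR was higher with Ind+GSK at 2 h (0.25 log2 units, limma adjusted p = 0.0297) and at 6 h (0.25, limma adjusted p = 0.0263), and ERBB3, the NRG1 receptor without much kinase activity of its own, was lower at 6 h (-0.28, limma adjusted p = 0.0457). Without replicate 3 none of these blocked calls held (limma adjusted p = 0.0678 and 0.102 for EGFR and 0.245 for ERBB3). Of 4 measured other EGF-family ligands (EGF, NRG2, NRG3 and NRG4) 0 were called across arrays, and of 12 genes for shedding and maturation also 0, against 0.268% of all genes with indacaterol and 0.759% with Ind+GSK at 6 h. With the block, where 2.32% and 5.29% of all genes were called at 6 h with indacaterol and with Ind+GSK, the sheddase ADAM12 was higher at 6 h with indacaterol (0.78 log2 units, limma adjusted p = 5.02e-05) and with Ind+GSK (0.70, limma adjusted p = 0.000167), and the rhomboid protease RHBDL2 was lower with Ind+GSK (-0.42, limma adjusted p = 0.016). Without replicate 3 the blocked ADAM12 calls held (limma adjusted p = 0.000124 and 0.00131) and that of RHBDL2 was lost (limma adjusted p = 0.157). The median change of the shedding list at 6 h was 0.02 with indacaterol and -0.01 with Ind+GSK, beside -0.005 and 0.002 over all genes.

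Among 16 negative regulators of the receptor and of ERK, 2 rose at both 1 and 2 h with either indacaterol or Ind+GSK. Of all genes 0.212% were called at 1 h and 1.22% at 2 h with indacaterol, and 0.283% and 1.06% with Ind+GSK. SPRY2, a Sprouty inhibitor of RAS-ERK signalling, averaged 2744 with indacaterol and 1312 with vehicle at 1 h, a change of 1.05 ± 0.21 log2 units (limma adjusted p = 0.00613). DUSP4, a nuclear phosphatase of ERK, averaged 3381 with indacaterol and 1769 with vehicle at 2 h, a change of 0.93 ± 0.14 (limma adjusted p = 1.05e-05), and was the 1 gene of the list still called across arrays at 6 h, with Ind+GSK (0.76, limma adjusted p = 0.000642). These SPRY2 and DUSP4 calls held without replicate 3. With Ind+GSK at 2 h, where the numbers paired the arrays and 3.5% of all genes were called with the block, the blocked fit also called ERRFI1, an inhibitor of the EGFR kinase (0.74 log2 units, limma adjusted p = 0.000583), LRIG1, which promotes loss of the receptor (0.50, limma adjusted p = 0.00177), and the ERK phosphatase DUSP5 (0.96, limma adjusted p = 6.23e-05), and all 3 held in that fit without replicate 3. With indacaterol at 1 h, where 1.04% of all genes were called with the block, it also called ERRFI1 (0.71, limma adjusted p = 0.00355) and DUSP5 (1.06, limma adjusted p = 3.73e-05), and both held. The other 11 measured members were not called with Ind+GSK at 2 h in either fit, and the list's median change with Ind+GSK was 0.15, beside -0.02 over all genes. At 6 h the blocked fit called DUSP4 higher with indacaterol, and CBLB and DUSP4 higher with Ind+GSK. Of all genes 2.32% and 5.29% were called there with the block.

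Of 15 genes of the ERK-dependent early response 14 were measured, and they moved in both directions. At 2 h MYC and PLAUR, the urokinase receptor, rose with indacaterol, by 0.78 ± 0.14 and 0.61 ± 0.12 log2 units (limma adjusted p = 0.000549 and 0.00173). EGR1, an ERK-induced transcription factor, averaged 549 with indacaterol and 1467 with vehicle and fell by 1.46 ± 0.21 (limma adjusted p = 3.86e-06). The same 3 were called with Ind+GSK, where EGR1 fell by 1.68 at 2 h and by 1.37 at 6 h (limma adjusted p = 1.54e-07 and 2.27e-05), and these calls held without replicate 3. FOS averaged 251 with indacaterol and 67.5 with vehicle at 2 h, a difference of 1.42 ± 0.53 that was not called across arrays (limma adjusted p = 0.319). The list's median change at 2 h was -0.05 with indacaterol, beside -0.000182 over all genes, with 2 called higher, 1 lower and 11 not called, against 1.22% of all genes called. Without replicate 3 the AP-1 subunit gene FOSL1 and HMGA2, a chromatin protein gene, were also called lower with indacaterol at 2 h (limma adjusted p = 0.0324 and 0.00454), which makes 3. Of all 19775 genes 277 were called in that comparison without replicate 3. With Ind+GSK at 2 h the blocked fit, in which 3.5% of all genes were called, called 4 higher and 3 lower. These added FOS (1.20 log2 units, limma adjusted p = 0.000536) and the AP-1 subunit gene JUNB (0.81, limma adjusted p = 0.00136), which rose, and FOSL1 (-0.63, limma adjusted p = 0.000802) and HMGA2 (-0.77, limma adjusted p = 3.32e-05), which fell. All 4 held in that fit without replicate 3 (limma adjusted p = 0.00339, 0.0151, 0.0011 and 0.0012). At 1 h with indacaterol, where 1.04% of all genes were called with the block, FOS (1.12), JUNB (0.74) and PLAUR (0.31) were called higher beside MYC (limma adjusted p = 0.00534, 0.015 and 0.0079), and without replicate 3 none of these 3 was (limma adjusted p = 0.0557, 0.146 and 0.0538). At 6 h the blocked fit called EGR1 lower with indacaterol. With Ind+GSK at 6 h it called JUNB, MYC and PLAUR higher and EGR1 and EMP1 lower. Of all genes 2.32% and 5.29% were called there with the block.

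Of the listed cAMP-responsive genes 4 of 6 were called higher at 1 h and 6 of 6 at 2 h with both indacaterol and Ind+GSK, against 0.212% and 1.22% of all genes with indacaterol and 0.283% and 1.06% with Ind+GSK. The list was chosen with earlier results of these data known, so its count is a description and no independent check. Without replicate 3 CREM was not called at 2 h, which left 5 of 6 (limma adjusted p = 0.105 with indacaterol and 0.482 with Ind+GSK). Of all 19775 genes 277 were called at 2 h with indacaterol and 216 with Ind+GSK without replicate 3. NR4A3, an orphan nuclear receptor, averaged 2171 with indacaterol and 27.1 with vehicle at 2 h, a change of 5.58 ± 0.58 log2 units (limma adjusted p = 1.84e-09). SIK1, a salt-inducible kinase, changed by 2.56 ± 0.38 (limma adjusted p = 1.29e-05). On the same arrays the HBEGF difference was 0.65 log2 units.

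**Figure D5:**
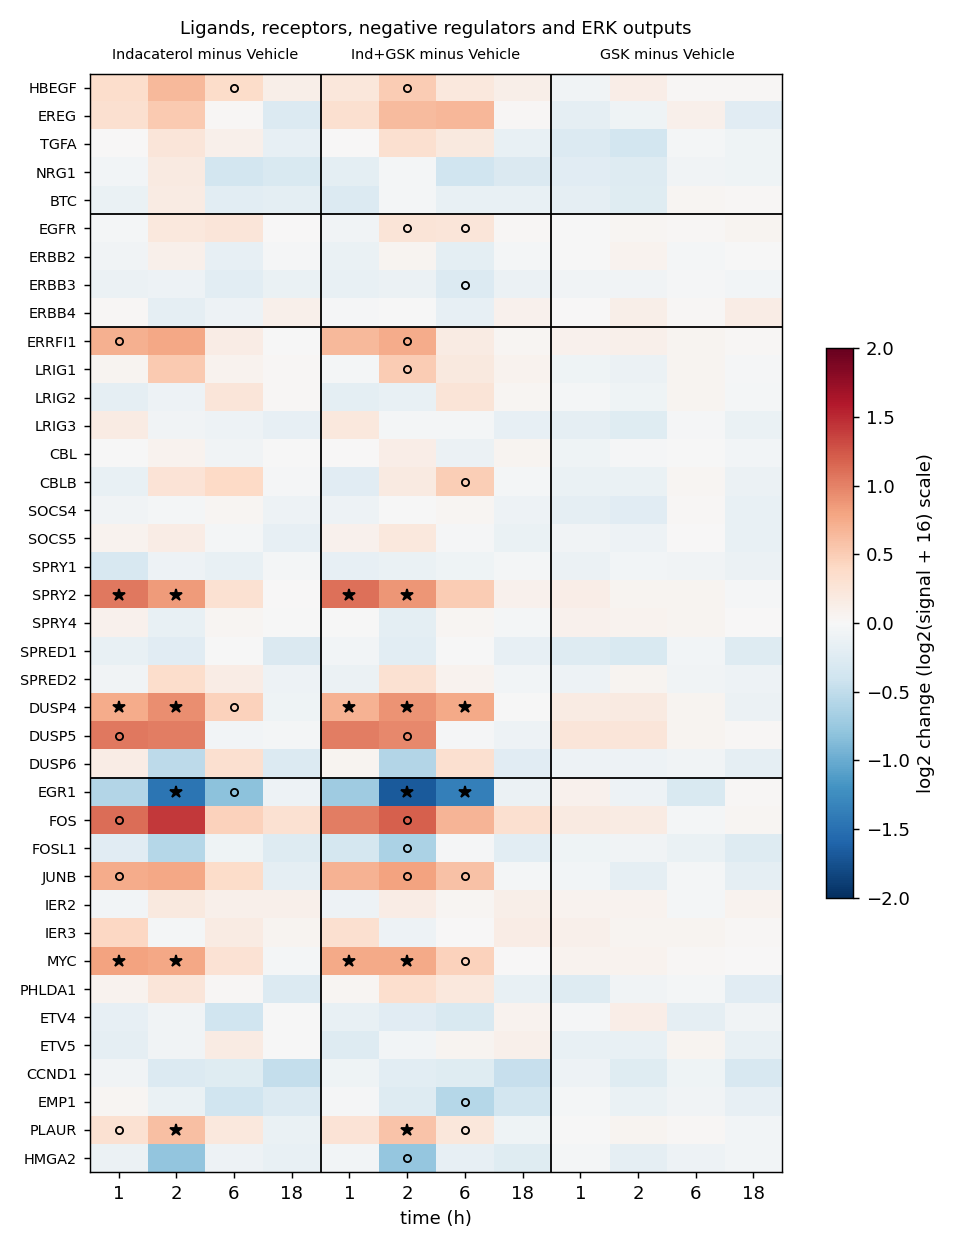
Colours give the log2 change from vehicle of each gene (rows, from top: 5 ligands, 4 receptors, 16 negative regulators, 14 ERK early-response genes) by time (columns) with indacaterol, Ind+GSK and GSK; the colour scale is cut at 2 in either direction. Stars are calls across arrays and open circles are calls with the replicate block alone, drawn where the numbers paired the arrays; no ligand has a star, HBEGF has circles with indacaterol at 6 h and with Ind+GSK at 2 h, and SPRY2, DUSP4, MYC, PLAUR and EGR1 have stars.

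HBEGF was the only ligand called in the blocked fit, and the genes most like it were ranked by Pearson correlation over the 16 group means, among 15058 genes with a mean signal of at least 64. They were AVPI1 (r = 0.96), SDC4 (0.958), which encodes the heparan sulphate proteoglycan syndecan 4, HERPUD1 (0.958), a gene of the endoplasmic reticulum stress response, LRRC8A (0.956), a subunit of volume-regulated anion channels, and SLC30A1 (0.956), a zinc exporter. Without replicate 3 the correlations were 0.969, 0.961, 0.958, 0.939 and 0.939. With indacaterol at 2 h these genes differed from vehicle by 1.35, 0.47, 0.60, 0.56 and 0.56 log2 units. The group means share arrays, treatments and replicate numbers, so these values are descriptions.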

How the data were processed

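Total RNA of 64 BEAS-2B samples was hybridised to 3′ expression arrays, per the labels' protocols. The deposited values are linear probe-set intensities that the authors computed. The submitters' processing notes name PLIER and Transcriptome Analysis Console 4, without settings or order. Probe sets were named by the platform annotation given, updated through gene IDs (41037 updated), and 62 controls were left out; 41091 had 1 symbol, 1801 several and 11721 none. Each of 19775 genes used its brightest single-symbol probe set on log2(signal + 16), and all 54613 probe sets were fitted apart. limma 3.58.1 (R 4.3.3) fitted 16 group means to 64 arrays with 48 residual degrees of freedom (prior, 2.9 in the median gene), tested two-sided with Benjamini-Hochberg adjustment over all genes. Groups came from the sample labels, and the number of arrays limits the precision.

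The comparisons were each drug with vehicle at the same time, Ind+GSK with indacaterol, departure from additivity, and vehicle over time, with F-tests between times. The labels number the replicates 1 to 4 in each group without saying what a number marks. A comparison's arrays were treated as paired where all 4 correlations of same-numbered deviations exceeded 0.1; this held for 14 of 19 comparisons (range over all -0.0484 to 0.89). Block values are given in the report only for paired comparisons. Alternatives were other normalization, constants, filters, probe-set rules, eBayes trend, the block, and leaving out arrays.

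The members and gene lists were chosen with earlier results of these data known. Genes named are the ligands, the receptors, list members called in a comparison of drug with vehicle, and the 5 genes most like a called ligand. Of the cAMP list only some called members are named. Since no ligand was called without the block, HBEGF was taken from the blocked fit. The fits were tested on simulated data. Promoter sequence is from RefSeq, GRCh38.p14. AREG was not analysed here.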

Additional observations from a re-analysis of the deposited data

Results flagged for a closer look

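One of 80 groups of 4 arrays (5 ligand genes in 16 groups) held an array far from its 3 companions: NRG1 with GSK at 6 h read 55.98 in replicate 3, against 169.5 to 197.3 in the other replicates. On the log2(signal + 16) scale its gap to the nearest array, as a share of the group's whole range, exceeded Dixon's critical value for 4 samples, which chance passes in about 1 of 20 groups. NRG1 was also low on the other replicate 3 arrays.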

How the results depend on the processing

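The precision is limited by 4 arrays a group and, for BTC, by low signal. Without the replicate block, 0 of 5 ligand genes were called in every comparison and F-test under all other normalization, constant, filter, probe-set and eBayes settings and with any single array or replicate number left out: 0 of 499 counts were above 0, and 0 of 2322 single-gene values were called. With the replicate block the count was 1, HBEGF, for indacaterol and for Ind+GSK at 2 h in all 7 blocked settings, which were the block alone, with each of 4 replicate numbers left out, with quantile normalization and with an added constant of 1. HBEGF at 2 h was 0.588 to 0.672 with indacaterol (adjusted p 6.61e-06 to 0.000833, 7e-06 with the block alone) and 0.485 to 0.549 with Ind+GSK (0.000493 to 0.0168). For indacaterol at 2 h the numbers did not meet the pairing rule, so this is given here only. In that fit 3.82% of all genes were called. The count was 1 for indacaterol at 6 h in 3 of 7 blocked settings (block alone, quantile, constant of 1), for vehicle at 18 h against 1 h in 3 (block alone, without replicate 1, constant of 1), for vehicle over time in 4 (these and quantile), for indacaterol at 1 h in 1 (quantile, HBEGF, adjusted p 0.0241) and for Ind+GSK at 6 h in 1 (constant of 1, EREG, adjusted p 0.0284). With the block alone 22.3% of all genes were called for vehicle over time, so 1 of 5 ligand genes there is near that share. The share was 1.04% for indacaterol at 1 h and 2.32% at 6 h. It was 3.5% and 5.29% for Ind+GSK at 2 and 6 h, and 7.92% for vehicle at 18 h. Shares for the blocked quantile and constant of 1 fits are not given here. The block changed no other ligand call. The blocked settings with replicate 1, 2 or 4 left out, with quantile normalization and with a constant of 1 were chosen after seeing the data. The cause of these changes was not tested beyond the smaller SE of the blocked fit, 0.10 in place of 0.35 for HBEGF.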
